A study of Mus musculus with 2 samples.

Results

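Mme, Cd59a, Tm4sf1, Scpep1, Klhl31 and Cdh26 are 6 of the 31055 features counted in SOX9iresGFP+ cells sorted from the early postnatal mouse pituitary. They were selected on measured values of these same cells, as genes that led the cluster of stem cells (SCs) richest in Ednrb. Their difference between that cluster and any other cells, SCs or not, is therefore a description and carries no test. Each was found by its symbol in the feature tables of both libraries. Values are counts of unique molecular identifiers (UMIs), and CPM is a gene's UMIs in the pooled cells of a group scaled to a common total of all UMIs. All 6 passed the minimum used to compare genes, a level of 10 CPM in a group compared, through the group where they are high, so that their passing is no result.

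The cells came from Sox9iresGFP/+ mice at postnatal day 3, in which the Sox9 locus also drives GFP. GFP is the longer-lived protein, and cells that have lately lost SOX9 can still fall in the sort gate. The libraries were 1 male and 1 female, each from 3 pituitaries pooled before sorting. Both groups carried the Sox9iresGFP allele, and no GFP-negative cells were analysed here. With 1 library per sex, sex cannot be told apart from the animals, the sort or the library. Every interval below covers counting error only. Those of levels and shares are 95% intervals, and the limits of ratios, set from such intervals, are wider.

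The matrices held 10569 male and 5796 female barcodes, of which 10410 and 5711 passed the filter on mitochondrial UMIs, with medians of 8902.5 and 9789 UMIs. In the male library 34.0% of these barcodes had fewer than 2000 genes, against 4.69% in the female. Sox2 was detected in 63.5% of male and 86.3% of female barcodes, Sox9 in 30.4% and 43.3%, and the eGFP transcript in 11.2% and 10.9%. The libraries shared 19 barcode sequences.

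Ednrb, a receptor for endothelins, and Aldh1a2, an enzyme that makes retinoic acid, are used as marks of SCs lining the pituitary cleft and of SCs in the anterior lobe. The pituitary SCs express Sox2 and Sox9 and give rise to the hormone-producing cells of the gland. Mme encodes neprilysin, a membrane metallopeptidase that degrades small peptides, endothelins among them. Scpep1 encodes a lysosomal serine carboxypeptidase known as retinoid-inducible. Cd59a encodes a membrane-anchored inhibitor of the complement attack complex. Tm4sf1 encodes a multi-pass surface protein of the L6 family. Cdh26 encodes an epithelial cadherin. Klhl31 encodes a kelch-like BTB protein of the kind that pairs with cullin 3.

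In the mouse genome build mm10 (GENCODE vM21), Mme lies on the plus strand at chr3:63241537-63386030 and Cd59a on the plus strand at chr2:104095801-104115354. Tm4sf1 lies on the minus strand at chr3:57285611-57301988 and Scpep1 on the minus strand at chr11:88924020-88955465. Klhl31 lies on the plus strand at chr9:77636500-77660127 and Cdh26 on the plus strand at chr2:178430531-178487366. Cd59a is 4613 bases downstream of its paralog Cd59b. No 50-base word in the last 500 bases of any coding transcript of the 6 genes occurred in a transcript of another gene, Cd59b included. Of the 6, Scpep1 overlaps another annotated gene, the antisense Scpep1os.

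The promoters of the 6 genes, which were selected as leading the same cluster, were searched for 7 short motifs. RefSeq (GRCm38.p6) gave 8 promoters for the 6 genes, 3 of them for Mme, each running from 250 bases before to 50 after a transcription start. Each motif was read on both strands, and in the 8 windows no match overlapped another. SOX factors were searched by the letters ACAATG, which 12.6% of all 32851 promoters held. TEAD factors were searched by GGAATG, held by 14.7% of promoters, and RBPJ of the Notch pathway by GTGGGAA, held by 6.38%. The half-site of nuclear receptors, retinoic acid receptors among them, was searched by AGGTCA, held by 16.3%. TCF and LEF factors of the Wnt pathway were searched by CTTTGA, held by 16.0%. The E-box was searched by CACGTG, held by 7.15%, and the TATA box by its letters TATAAA, held by 13.6%. The 4 promoters that held any of them are printed here 5′ to 3′ on the gene's strand, with the match in capitals, which for Cd59a is read on the other strand. They are the first and second Mme promoters at chr3:63294961-63295260 and chr3:63295622-63295921, the Cd59a promoter at chr2:104095551-104095850 and the Scpep1 promoter at chr11:88955393-88955692.
Mme, first: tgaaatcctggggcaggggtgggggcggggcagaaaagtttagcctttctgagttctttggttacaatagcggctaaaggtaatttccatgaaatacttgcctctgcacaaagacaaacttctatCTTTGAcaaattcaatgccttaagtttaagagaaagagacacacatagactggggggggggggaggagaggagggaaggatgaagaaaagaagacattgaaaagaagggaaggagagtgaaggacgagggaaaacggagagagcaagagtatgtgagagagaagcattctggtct
Mme, second: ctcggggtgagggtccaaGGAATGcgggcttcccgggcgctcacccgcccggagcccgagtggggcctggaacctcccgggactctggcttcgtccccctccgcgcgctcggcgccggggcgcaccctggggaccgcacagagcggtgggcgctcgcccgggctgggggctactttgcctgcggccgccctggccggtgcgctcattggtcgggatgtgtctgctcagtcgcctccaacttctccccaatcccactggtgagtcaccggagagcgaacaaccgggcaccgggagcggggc
Cd59a: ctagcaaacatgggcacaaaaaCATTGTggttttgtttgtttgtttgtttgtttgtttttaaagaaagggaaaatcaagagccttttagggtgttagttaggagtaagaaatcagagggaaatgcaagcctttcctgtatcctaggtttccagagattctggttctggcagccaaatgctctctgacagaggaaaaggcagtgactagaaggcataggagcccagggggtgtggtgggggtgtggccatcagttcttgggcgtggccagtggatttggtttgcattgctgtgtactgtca
Scpep1: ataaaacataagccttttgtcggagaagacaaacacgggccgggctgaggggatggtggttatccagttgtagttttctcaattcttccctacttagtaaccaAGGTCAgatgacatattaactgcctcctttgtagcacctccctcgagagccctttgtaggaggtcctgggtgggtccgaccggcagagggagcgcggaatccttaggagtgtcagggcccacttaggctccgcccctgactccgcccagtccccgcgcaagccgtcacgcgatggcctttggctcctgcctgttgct
The first Mme promoter held the TCF/LEF motif and the second the TEAD motif. Cd59a held the SOX motif and Scpep1 the half-site. No motif was found in more than 1 of the 6 genes. The RBPJ motif, the E-box and the TATA box were in none of the 8 windows, and those of Tm4sf1, Klhl31 and Cdh26 held no motif searched.

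Co-detection with Ednrb was read in Sox2-positive barcodes, those with at least 1 Sox2 UMI. To keep deeper barcodes from carrying more genes by depth alone, each barcode was thinned to 5000 UMIs, which left 5176 of 6610 male and 4761 of 4928 female Sox2-positive barcodes. Of these, 837 male and 1546 female barcodes had an Ednrb UMI. Every gene of the 6 was found in a larger share of Ednrb-positive than of Ednrb-negative barcodes in both libraries, by at least 2-fold. Of all genes compared, 1.76% did the same. That contrast is close to the values on which the genes were selected, and nothing is read from the count.

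Mme was detected in 21.7% (19.0 to 24.7) of Ednrb-positive and 3.41% (2.89 to 3.99) of Ednrb-negative male barcodes, a ratio of 6.37 with limits of 4.75 and 8.54. In the female library these shares were 26.3% (24.1 to 28.6) and 6.94% (6.08 to 7.87), a ratio of 3.80 (3.07 to 4.70). The intervals of the shares were apart in both libraries, and the ratio was above that of the other 5 genes in both. Genes found in more of the Ednrb-negative barcodes have less room for a high ratio. Scpep1, the carboxypeptidase, was detected in 47.9% against 15.1% of male and 45.5% against 19.9% of female barcodes, for ratios of 3.18 (2.75 to 3.66) and 2.28 (2.01 to 2.59).

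Tm4sf1 was detected in 65.0% of Ednrb-positive and 23.9% of Ednrb-negative male barcodes, and in 73.2% and 30.5% of female barcodes. Cd59a was detected in 58.8% against 21.1% of male and 64.8% against 28.1% of female barcodes. Both surface proteins thus had transcripts in most Ednrb-positive barcodes, with ratios of 2.72 and 2.40 for Tm4sf1 and 2.79 and 2.31 for Cd59a. The paralog Cd59b was sparser, at 6.33% against 2.95% of male and 7.57% against 3.58% of female barcodes.

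Cdh26 was detected in 26.6% against 9.20% of male and 31.7% against 14.1% of female barcodes, ratios of 2.90 (2.35 to 3.57) and 2.25 (1.92 to 2.64). Klhl31 had the smallest shares, 15.9% against 4.01% in male and 18.6% against 6.38% in female cells, with ratios of 3.96 (2.91 to 5.38) and 2.92 (2.30 to 3.72). The median ratio over the 6 genes was 3.04 in male and 2.36 in female cells, beside 1.04 and 1.03 over all genes compared. All 6 ratios were higher in the male library, where the Ednrb-negative shares were lower. Without thinning, the log2 ratios ran from 1.45 to 2.35 in male and from 1.15 to 2.10 in female cells.

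**Figure D1:**
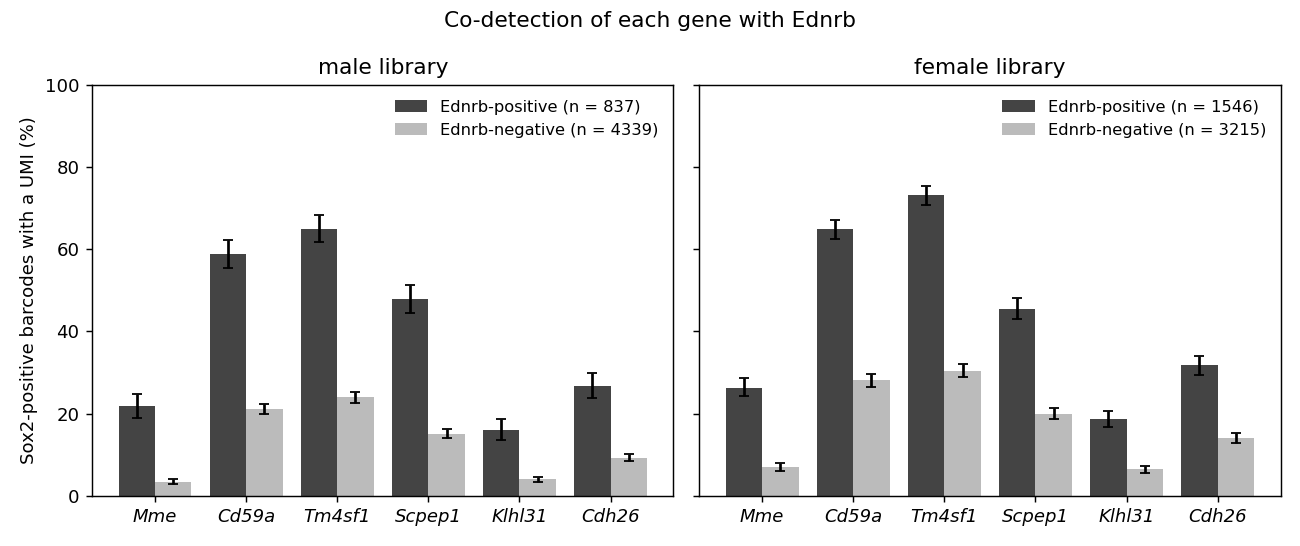
Share of Sox2-positive barcodes (percent, thinned to 5000 UMIs) with a UMI of each gene, for Ednrb-positive (dark) and Ednrb-negative (light) barcodes of the male and female library, with 95% Clopper-Pearson intervals. The dark bar is at least 2-fold as high as the light bar for every gene in both libraries, and Mme has the widest relative gap, 21.7% against 3.41% in the male.

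The levels of these genes were also higher in barcodes with more Ednrb UMIs. Barcodes were grouped by 0, 1, 2 and 3 or more Ednrb UMIs, which held 4339, 552, 169 and 116 male and 3215, 804, 378 and 364 female barcodes. Mme stood at 8.48, 35.1, 76.9 and 147 CPM across these groups in the male library, and at 17.4, 53.5, 86.8 and 119 in the female. Tm4sf1 ran from 87.0 to 571 in male and from 129 to 492 in female cells, and Cd59a from 64.0 to 417 and from 98.0 to 405. For these 3 genes each group stood above the one before it in both libraries.

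Scpep1 was the gene whose course differed most between the libraries. With no Ednrb UMI it stood at 42.5 CPM (39.8 to 45.3) in male and 55.1 (51.5 to 58.9) in female cells, and with 1 at 147 (133 to 162) and 145 (134 to 157). With 2 it stood at 292 (257 to 331) and 184 (165 to 204), and with 3 or more at 414 (363 to 470) and 187 (168 to 208). The male and female intervals overlapped at 1 Ednrb UMI and were apart at 2 and above, where the male value was the higher. Klhl31 ran from 8.62 to 62.1 in male and from 14.7 to 53.8 in female cells. Cdh26 ran from 21.3 to 89.9 at 2 Ednrb UMIs in the male library and stood at 86.2 (64.0 to 114) at 3 or more, within the interval of the group before it.

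**Figure D2:**
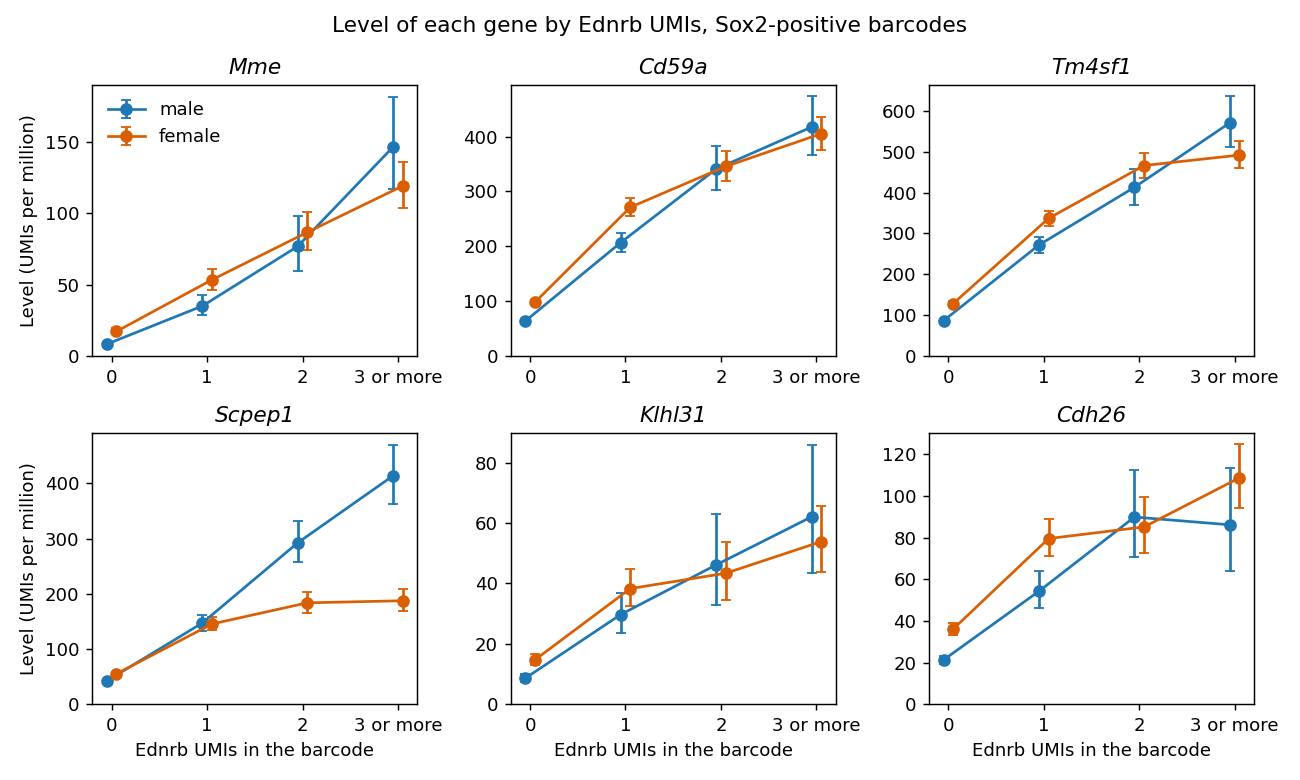
Level of each gene (CPM, pooled over thinned Sox2-positive barcodes) by the number of Ednrb UMIs in the barcode, in the male (blue) and female (orange) library, with exact Poisson 95% intervals. With no Ednrb UMI every gene stands higher in the female, with intervals apart, as for Mme at 17.4 against 8.48 in the male. In the last group the intervals of the libraries are apart for Scpep1 alone, where the male reaches 414 and the female 187. Cdh26 in the male is level over the last groups.

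The Sox2-positive barcodes include cells outside the SC clusters, and the ratios were smaller without them. The cells were clustered without using the 6 genes, Ednrb or Aldh1a2, and clusters were named from marker lists. Of the 21 clusters 4 were SC-like. Within them, compared after the data had been seen, every gene was still in a larger share of Ednrb-positive barcodes in both libraries. The ratio was at least 2-fold in both libraries for Mme alone, at 4.16 (3.00 to 5.78) and 2.77 (2.20 to 3.49), where 0.429% of all genes compared reached it. Scpep1 reached 2.37 in male and 1.72 in female cells, Klhl31 2.54 and 1.82, Cd59a 2.01 and 1.68, Cdh26 1.80 and 1.43, and Tm4sf1 1.69 and 1.56. A gene found in many Ednrb-negative barcodes has less room for a high ratio. In the female SC-like clusters Tm4sf1 was in 49.1% and Cd59a in 40.3% of these barcodes.

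Within the Ednrb-richest SC-like cluster alone the ratios were smaller again. The room for them was smaller too, with Tm4sf1 in 78.6%, Cd59a in 69.0% and Scpep1 in 53.6% of its female Ednrb-negative barcodes. Mme was in 34.4% of Ednrb-positive and 20.6% of Ednrb-negative barcodes of this cluster in the male library, a ratio of 1.67 (1.09 to 2.61). In the female it was in 38.1% and 26.2%, a ratio of 1.45 (1.07 to 2.002). Its limits lay above 1 in both libraries. Those of Cd59a, Tm4sf1 and Scpep1 lay above 1 in male and held 1 in female cells, and those of Klhl31 and Cdh26 held 1 in both. Within the Aldh1a2-richest cluster the ratios were 3.95 and 1.77 for Mme, 2.06 and 1.56 for Cd59a, 1.68 and 1.60 for Tm4sf1, 2.30 and 2.0 for Klhl31, 1.53 and 1.30 for Scpep1, and 1.22 and 1.33 for Cdh26. Scpep1 and Cdh26 had limits that held 1 in both libraries, and Mme in the female.

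**Figure D3:**
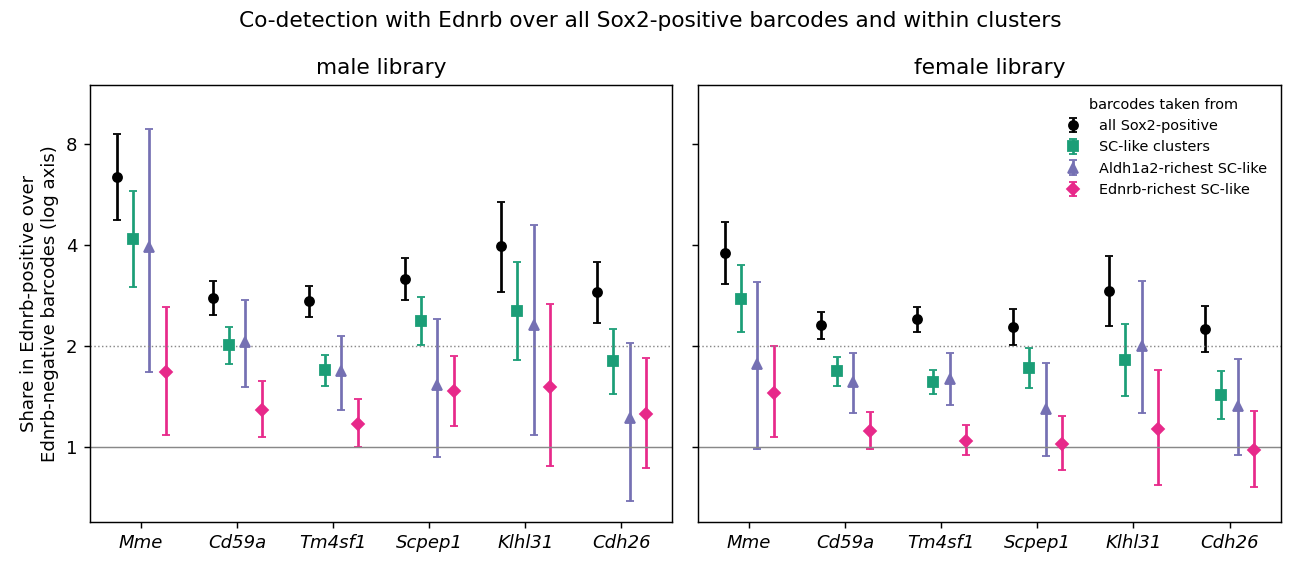
Ratio of the share in Ednrb-positive over Ednrb-negative barcodes (log axis) for each gene, over all Sox2-positive barcodes (black), the 4 SC-like clusters (green), the Aldh1a2-richest cluster (purple) and the Ednrb-richest cluster (pink). Bars are limits from the 95% intervals of both shares, and the dotted line is 2-fold. Mme alone stays above the line in the SC-like clusters of both libraries, at 4.16 and 2.77. Genes with larger Ednrb-negative shares have less room for a high ratio.

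Aldh1a2 did not divide the 6 genes in the way Ednrb did. None of the 6 was at least 2-fold lower in Aldh1a2-positive than in Aldh1a2-negative Sox2-positive barcodes in both libraries, against 3.14% of all genes compared. Tm4sf1, in 53.4% of female Aldh1a2-positive barcodes, could not have been and was not among the genes compared. All 6 were in fact detected in a larger share of Aldh1a2-positive barcodes in both libraries. Tm4sf1 was in 41.98% of Aldh1a2-positive and 11.4% of Aldh1a2-negative male barcodes and in 53.4% and 27.8% of female barcodes. Mme was in 7.99% and 3.67% of male and in 14.8% and 10.3% of female barcodes. The ratios ran from 2.18 to 3.68 in male and from 1.43 to 1.92 in female cells. This direction turned when the barcodes were restricted to the SC-like clusters, where the 12 ratios lay between 0.688 and 0.990. Limits below 1 were seen there for Mme, at 0.759 (0.5996 to 0.969), and for Klhl31, at 0.713 (0.548 to 0.935), both in the female library.

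Most Ednrb-positive barcodes also had an Aldh1a2 UMI, 80.4% in male and 74.2% in female cells. The Sox2-positive barcodes were therefore divided into 4 classes, with Ednrb alone (164 male and 399 female), with both (673 and 1147), with Aldh1a2 alone (2567 and 1930) and with neither (1772 and 1285). Mme was in 22.0% of male barcodes with Ednrb alone, 21.7% with both, 4.402% with Aldh1a2 alone and 1.98% with neither. In the female library it was in 26.8%, 26.2%, 8.08% and 5.21%. Once Ednrb was detected, the ratio of both over Ednrb alone had limits that held 1 for all 6 genes in both libraries. Limits of ratios are wider than the intervals of the shares they come from. That they held 1 therefore does not show that a further Aldh1a2 UMI went with no change. The ratio farthest from 1 was that of Scpep1 in the male library, at 1.28 (0.985 to 1.71), from 50.1% against 39.0%.

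Without Ednrb, the Aldh1a2 UMI went with a larger share of every gene. Cdh26 was in 13.6% of male barcodes with Aldh1a2 alone and 2.82% with neither, and in 18.6% and 7.32% of female barcodes. Tm4sf1 was in 35.5% and 7.11% of male and 40.8% and 14.9% of female barcodes, for ratios of 4.99 (4.0 to 6.27) and 2.73 (2.27 to 3.30). In all 12 comparisons the limits lay above 1 and the class with neither had the lowest share for every gene. With Ednrb alone against Aldh1a2 alone, Mme was 4.99-fold (3.01 to 7.98) and 3.32-fold (2.40 to 4.55) more frequent, and the other genes 1.63-fold to 2.56-fold.

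The share of barcodes with Ednrb was larger the more of the 6 genes they held. The genes were selected as leading the Ednrb-richest cluster, so this course is a description. Ednrb was detected in 3.63% (2.93 to 4.45) of male barcodes with none of the 6 and in 13.6%, 25.6%, 45.3%, 59.6%, 78.9% and 86.7% of those with 1 to 6 of them. In the female library the course ran from 7.43% (6.20 to 8.83) over 23.3%, 41.4%, 59.1%, 68.2% and 73.8% to 84.2%. The last group was small, with 15 male and 19 female barcodes, and its interval reached from 59.5% to 98.3% in the male. At least 4 of the 6 were detected in 22.5% (19.7 to 25.4) of Ednrb-positive and 2.35% (1.92 to 2.85) of Ednrb-negative male barcodes, and in 26.7% (24.5 to 29.0) and 5.44% (4.68 to 6.28) of female barcodes. Aldh1a2 took another course, at 43.4% with none, 86.5% with 2 and 73.3% with all 6 in the male library, and at 45.2%, 80.3% and 52.6% in the female.

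**Figure D4:**
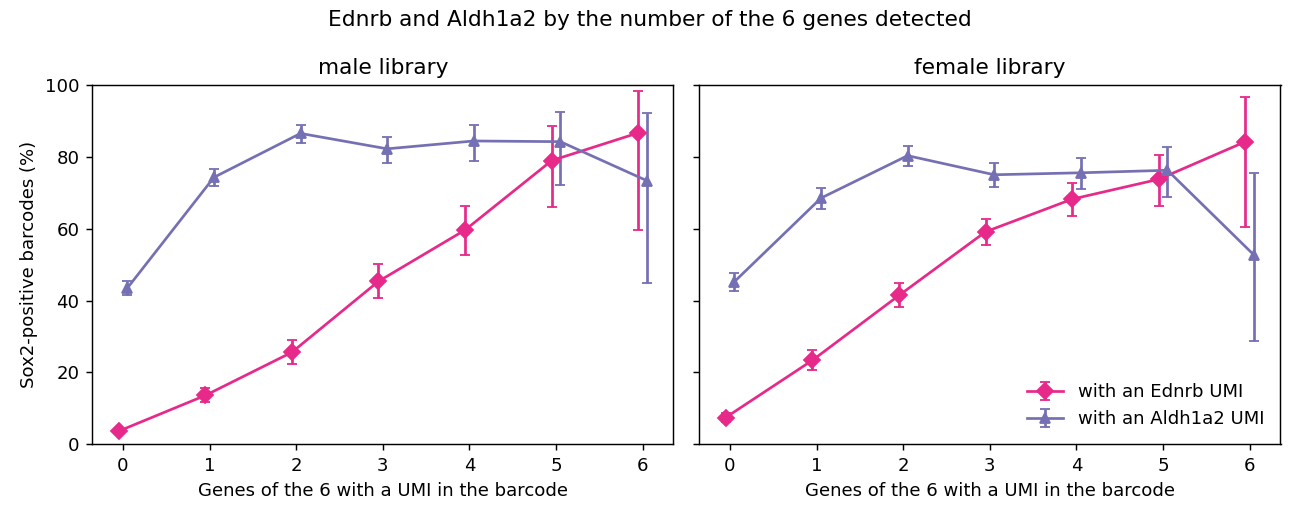
Share of Sox2-positive barcodes (percent) with an Ednrb UMI (pink) or an Aldh1a2 UMI (purple), by how many of the 6 genes had a UMI in the barcode, with 95% Clopper-Pearson intervals. Ednrb runs from 3.63% to 86.7% in male and from 7.43% to 84.2% in female cells, while Aldh1a2 is already at 86.5% and 80.3% with 2 genes.

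The 6 genes were also detected together with each other. Of their 15 pairs, 13 occurred in the same barcode at least 1.5-fold as often as the product of their shares in both libraries, where 0.228% of all pairs of genes did. Genes selected as leading the same cluster tend to be found together across mixed cells. Nothing is read from this count or from those of pairs below. The ratio over pairs had a median of 2.02 in male and 1.60 in female cells, and was largest for Mme with Klhl31, at 2.76 and 2.01. The pairs short of 1.5-fold were Cd59a with Klhl31 and Scpep1 with Cdh26, at 1.49 and 1.46 in the female. Without thinning 7 pairs reached 1.5-fold in both libraries, and within the SC-like clusters 1 pair did, where 0.0949% of all pairs did, with medians of 1.49 and 1.25.

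Among Ednrb-positive barcodes no pair of the 15 reached 1.5-fold in both libraries (0.448% of all pairs did), and the median ratio was 1.201 in male and 1.15 in female cells. The share of Tm4sf1, 73.2% in the female, left its 5 pairs no room to reach 1.5-fold. Among Ednrb-negative barcodes all 15 pairs reached it (0.282% of all pairs did), with medians of 2.10 and 1.84. Mme with Scpep1 stood at 2.96 in these male barcodes, and Mme with Klhl31 at 2.74 in the female.

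At the level of clusters the Ednrb-richest SC-like cluster held 624 male and 1045 female cells, and the Aldh1a2-richest 1378 and 1443. Ednrb stood at 234 and 362 CPM in the first and at 26.8 and 60.5 in the second. Aldh1a2 stood at 499 and 355 in the first and at 887 and 733 in the second, so the first also held Aldh1a2. Sox2 was at 728 and 837 in the first, and 7 of 8 SC markers were at 5 or more CPM in both libraries. Its leading genes were Ednrb, Mme, Ctgf, Cldn4, Cd59a, Tm4sf1, Scpep1, Pxdc1, Klhl31 and Alox12e, none of them one of those 8 markers. The genes were selected on these cells, so their place in the order is a description. Markers of pituicytes, the glia of the posterior lobe, summed to 92.1 and 58.0 CPM in this cluster and to 27.0 and 35.5 in the Aldh1a2-richest cluster, with Slc1a3 at 57.3 and 56.7 in the first. In the male cluster 5 of these 5 markers were at 5 or more CPM, and in the female 1. Melanotroph markers summed to 376 and 67.4 CPM in the Ednrb-richest and to 188 and 62.8 in the Aldh1a2-richest cluster. Of the 5, 3 in male and 2 in female cells were at 5 or more CPM in the first and 1 in each library in the second, with Pomc at 361.5 and 56.8 against 187 and 60.5. Gh stood at 53.6 and 130 in the first and at 140 and 248 in the second. The part of the cells or RNA these markers come from in the levels below was not tested.

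All 6 genes were at least 2-fold higher in the Ednrb-richest than in the Aldh1a2-richest cluster in both libraries, where 1.78% of genes compared were. The genes were selected on this contrast, and nothing is read from the count. Mme stood at 80.3 (73.1 to 88.1) and 7.66 (6.32 to 9.19) CPM in male and at 110 (103 to 117) and 15.3 (13.3 to 17.6) in female cells. The ratios were 10.5 and 7.18, the widest of the 6. Scpep1 stood at 235 and 33.0 in male and at 215 and 51.1 in female cells, ratios of 7.13 and 4.21.

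Cd59a stood at 307 and 79.2 in male and at 412.5 and 122 in female cells, and Tm4sf1 at 422 and 104 and at 496 and 155. Both were 3.20-fold to 4.05-fold higher in the Ednrb-richest cluster. Klhl31 stood at 42.6 and 13.4 in male and at 52.7 and 23.1 in female cells, ratios of 3.17 and 2.28. Cdh26 stood at 83.4 and 34.6 and at 110 and 54.5, ratios of 2.41 (2.01 to 2.88) and 2.02 (1.76 to 2.31), the nearest of the 6 to 2-fold. The gap was thus widest for Mme and Scpep1, the peptidases, in both libraries. The median ratio over the 6 was 3.96 and 3.29, beside 1.04 in each library over all genes compared.

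Other SC-like cells lay between these clusters. The SC-like cluster led by replication genes such as Hells and Mcm3 had Mme at 25.6 and 50.1 CPM, Tm4sf1 at 232 and 351 and Scpep1 at 126 and 136, with Ednrb at 86.3 and 166. The cluster led by Ccnb2 had Mme at 10.5 and 26.0 and Tm4sf1 at 189 and 265. Proliferating-like cells, 494 male and 338 female, had Mme at 14.0 and 32.1, Cd59a at 105 and 160, Tm4sf1 at 185 and 278, Scpep1 at 94.2 and 126, Klhl31 at 14.5 and 15.4, and Cdh26 at 38.6 and 58.3. These levels were 1.71-fold to 5.74-fold below those of the Ednrb-richest cluster.

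Differentiating-like cells, which had Lef1 at 155 and 144 CPM, had little of 4 of the 6 genes. This group held 1565 male and 1158 female cells with medians of 12879 and 11732.5 UMIs, deeper than the 7590 and 8181 of the Ednrb-richest cluster. Mme stood at 0.438 (0.200 to 0.832) and 1.22 (0.709 to 1.95), Tm4sf1 at 1.70 and 2.65, Klhl31 at 0.682 and 1.07, and Cdh26 at 1.02 and 3.29. At 5000 UMIs Mme was in 0.199% and 0.957% of these cells, against 28.5% and 34.9% in the Ednrb-richest cluster (0.575% and 1.38% against 38.0% and 47.9% without thinning). Cd59a stood at 18.4 (16.6 to 20.4) and 24.7 (22.2 to 27.5), and Scpep1 at 10.9 (9.48 to 12.4) and 14.3 (12.3 to 16.4).

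The level in the Ednrb-richest cluster was 247-fold and 187-fold that in differentiating-like cells for Tm4sf1, and 183-fold and 90.4-fold for Mme. It was 16.7-fold in both libraries for Cd59a, and 21.7-fold and 15.1-fold for Scpep1. All 6 genes were at least 2-fold higher, where 14.4% of genes compared were, and the median ratio was 72.0 and 41.2 beside 1.03 and 1.04 over all genes compared. Tm4sf1 ranked 2nd in male and 4th in female cells among the 9330 genes compared. The genes were selected as leading the Ednrb-richest cluster, and nothing is read from the count or the ranks. Within the differentiating-like cells, those led by Cdkn1a and Dll1 had more of the 6 genes than those led by Smoc2. Cdh26 stood at 2.16 and 7.75 against 0.601 and 0.784, and Ednrb at 7.39 and 25.4 against 1.60 and 4.82.

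Endocrine-like cells, 997 male and 414 female, had the 6 genes at 1.74 to 22.2 CPM when lactotroph-, melanotroph-, gonadotroph- and somatotroph-like cells were pooled. All 6 were at least 2-fold higher in the Ednrb-richest cluster, where 11.5% of genes compared were, with a median ratio of 20.2 and 22.1 beside 1.01 in each library over all genes compared. Given the selection on that cluster, nothing is read from this count. Mme differed among the endocrine-like cells. It stood at 38.9 (33.2 to 45.4) and 26.9 (20.4 to 34.8) CPM in melanotroph-like cells, the Pomc-expressing cells of the intermediate lobe, where the other 5 genes stood at 0.708 to 24.6. At 5000 UMIs it was in 10.5% and 11.6% of these cells, and in 45.9% and 23.3% without thinning, at medians of 23568 and 14989 UMIs. The Ednrb-richest cluster was 2.06-fold and 4.09-fold higher. In gonadotroph-like cells Mme had no UMI in 2889519 male and 189118 female UMIs, which allows levels of up to 1.04 and 15.9 CPM. The female value rests on 12 cells.

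Lactotroph-like cells had Mme at 2.25 and 5.42, and somatotroph-like cells had 3 male UMIs and no female UMI. Cd59a was at 31.8 in the male gonadotroph-like cells and at 9.21 and 10.2 in melanotroph-like cells, where it was the lowest of the 4 groups in both libraries and Mme the highest. Cdh26 was at 0.708 and 0.928 in melanotroph-like cells, from 3 and 2 UMIs. Cells led by Neurod1 and Cga, which were not named because no marker list passed, had Mme at 0.305 in male and none in female cells, Tm4sf1 at 2.13 and 0.649 and Cd59a at 23.6 and 27.3. Leaving out barcodes that Scrublet marked as likely doublets moved some of these levels. Without them Tm4sf1 in pooled endocrine-like cells stood at 8.26 and 3.67 rather than 13.1 and 11.8, while Mme in melanotroph-like cells stood at 38.8 and 27.8.

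Mesenchymal-like cells, 607 male and 333 female with Dcn at 4595 and 5728 CPM, had Tm4sf1, Cd59a and Scpep1 at middle levels and almost no Klhl31 or Cdh26. Tm4sf1 stood at 67.7 (61.3 to 74.5) and 72.3 (63.0 to 82.6), Cd59a at 35.5 and 47.0, Scpep1 at 35.2 and 40.7 and Mme at 10.3 in both. Klhl31 stood at 0.981 and 2.33 and Cdh26 at 2.94 and 4.999, and without likely doublets these were 0.201 and 0.384, from 1 UMI in each library, and 1.41 and 1.54. All 6 genes were at least 2-fold higher in the Ednrb-richest cluster, where 11.2% of genes compared were, with a median ratio of 8.22 and 9.71 beside 0.987 and 1.02 over all genes compared. This count, too, follows the selection on that cluster, and nothing is read from it.

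Tm4sf1 was uneven within the mesenchymal-like cells. A small cluster led by Rgs5, a pericyte gene, with 25 male and 7 female cells, had Tm4sf1 at 959 (813 to 1124) and 725 (520 to 983) CPM. These levels were above the 422 and 496 of the Ednrb-richest cluster. Mme and Klhl31 had no UMI in the Rgs5-led cluster, but so few cells cannot show that they were lower there than in other mesenchymal-like cells. All 8 mesenchymal markers were at 5 or more CPM in this cluster, which was named from 2 of them among its leading genes. Without it, an alternative chosen after seeing the data, Tm4sf1 stood at 43.8 (38.7 to 49.5) and 59.8 (51.3 to 69.3) in the mesenchymal-like cells, and all 6 genes were still at least 2-fold higher in the Ednrb-richest cluster. The cells led by Apod and Col3a1 had Tm4sf1 at 80.0 and 84.8 and Mme at 16.3 and 14.9, and those led by Tcf21 had 17.4 and 32.2 and 6.39 and 5.72. Endothelial markers summed to 2.67 and 2.51 CPM in the Ednrb-richest cluster, and no marker of the 5 reached 5.

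**Figure D5:**
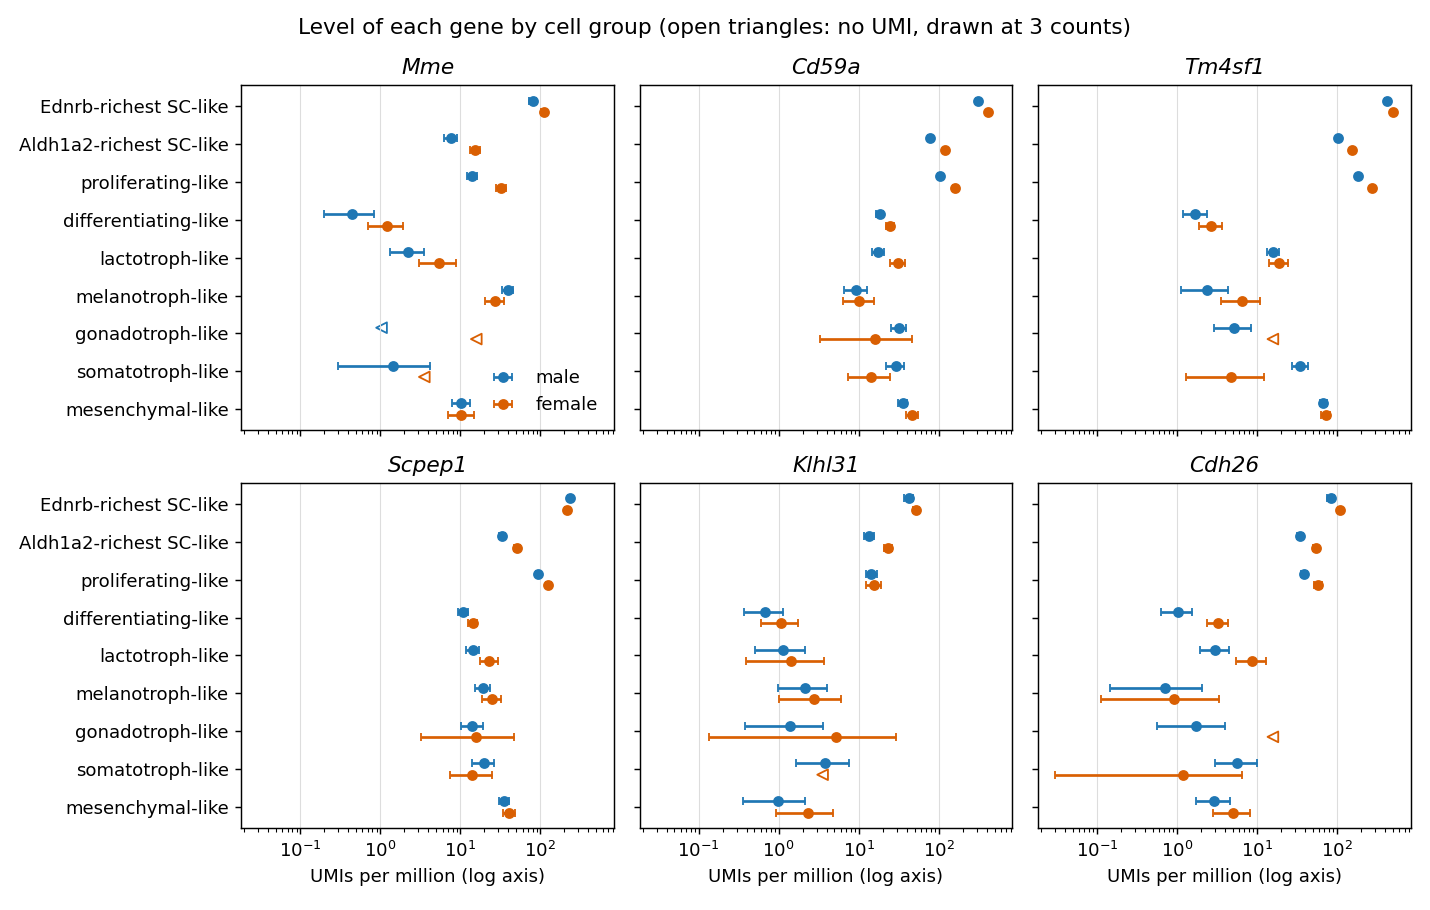
Level of each gene (CPM, log axis) in 9 groups of cells in the male (blue) and female (orange) library, with exact Poisson 95% intervals. Open triangles stand at 3 counts where no UMI was found. Every gene is highest in the Ednrb-richest cluster among these groups, and Tm4sf1, Klhl31, Cdh26 and Mme drop below 4 in differentiating-like cells. For Mme, melanotroph-like cells come next in the male (38.9). In the female they (26.9) stand below proliferating-like cells (32.1).

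Between the sexes, 5 of the 6 genes stood higher in female cells of the Ednrb-richest cluster, and 0 of 6 were 1.5-fold apart. Mme was 1.37-fold higher (1.17 to 1.60), Cd59a 1.34-fold (1.24 to 1.46), Cdh26 1.32-fold (1.13 to 1.54), Klhl31 1.24-fold (0.996 to 1.54) and Tm4sf1 1.18-fold (1.10 to 1.26), and Scpep1 stood at 0.914 (0.828 to 1.01) of the male level. Of the genes compared, 3.4% were at least 1.5-fold apart in either direction and 1.6% were at least 1.5-fold higher in the female. Ednrb itself was 1.55-fold higher (1.42 to 1.69) and Aldh1a2 stood at 0.711 (0.662 to 0.764). The Aldh1a2-richest cluster gave larger ratios, compared after the data had been seen. Mme was 2.0-fold higher (1.45 to 2.78) in the female, Klhl31 1.72-fold, Cdh26 1.57-fold, Scpep1 1.55-fold, Cd59a 1.54-fold and Tm4sf1 1.49-fold, and Ednrb 2.26-fold. At least 1.5-fold higher in the female were 5 of the 6, where 1.39% of genes compared were. The genes were selected together on these cells, and nothing is read from this count.

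Relatives and partners of the 6 genes were followed in lists chosen from their families, and few of them differed between the Ednrb-richest and Aldh1a2-richest clusters. Only genes at 10 or more CPM were counted. Ednrb, at 8.71-fold and 5.98-fold, was the only other gene of these lists at least 2-fold higher in both libraries, and none was 2-fold lower, where 1.01% of genes compared were. Ece1, an endothelin-converting relative of neprilysin, stood at 143 and 173 CPM in the Ednrb-richest and at 137 and 172 in the Aldh1a2-richest cluster. Among the endothelin ligands, Edn3 stood at 26.0 and 29.6 against 21.4 and 26.4 and Edn2 at 18.0 and 27.6 against 17.8 and 28.2. Edn1, under the minimum, stood at 2.49 and 4.47 against 0.133 and 0.296. Ctsa, the lysosomal carboxypeptidase related to Scpep1, stood at 32.1 and 36.0 against 29.3 and 42.2.

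Of 4 complement regulators other than Cd59a at the minimum, none reached 2-fold, with Clu at 508 and 563 against 303 and 359 and Cd59b at 16.9 and 19.4 against 10.1 and 10.5. The other 4 members of the L6 family were each under 3 CPM. Cul3 stood at 109 and 108 against 103 and 100.1, and Klhl13 at 59.3 and 63.2 against 56.5 and 54.9. Among 7 cadherins and catenins at the minimum, Cdh2 stood at 160 and 188 against 94.9 and 127 and Cdh1 at 23.9 and 27.7 against 13.4 and 16.1.

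The likeness of the 6 genes to others was read over 35 profiles, 1 for each cluster of at least 50 cells in each library, among 5030 genes. The profiles share libraries and clusters, and the 6 genes were selected on the cluster richest in Ednrb, so the correlations are descriptions. Apart from the 6 themselves, Ednrb was the gene most like Cd59a (Pearson r of 0.954) and Scpep1 (0.940), and was among the 3 most like Cdh26 (0.967). Arhgap5 and Filip1 came next for Cd59a, and Hs3st1 and Filip1 for Scpep1. Lhfpl1 was the most like both Cdh26 (0.982) and Klhl31 (0.947), with Mmp15 among the 3 for both. Tm4sf1 was most like Hes1 (0.954), the Notch target, followed by Mpzl2 and Tnfaip2. Mme stood apart, with Cdk6, Clu and Ctgf at 0.777, 0.776 and 0.770, and its r with the other 5 genes ran from 0.657 with Cd59a to 0.809 with Scpep1, where pairs among the other 5 ran from 0.883 to 0.952.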

How the data were processed

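Cells were sorted for GFP from 3 pooled male and 3 pooled female pituitaries and profiled with 10x Genomics 3' chemistry, which the labels give as both v2 and v3. The authors deposited filtered matrices of UMI counts per gene and barcode, made with Cell Ranger 3.0.2 against mm10 with eGFP added. The submitters' processing notes also name R 3.6.0 and Seurat 3 and 4. The counts are raw and not normalized.

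From these counts, barcodes were removed above the mean plus 3 SD of the mitochondrial share, 159 male and 85 female. Levels are pooled CPM (a gene's UMIs scaled to a common total) with exact Poisson 95% intervals. Shares of barcodes with a UMI were taken after thinning to 5000 UMIs (seed 1), with Clopper-Pearson 95% intervals. Limits of a ratio set the lower bound of one interval against the upper bound of the other, and a level with no UMI is bounded by 3 counts. Genes compared by their share with Ednrb or Aldh1a2 were those whose share in the group that had to be lower left room for 2-fold. Libraries were integrated with Seurat 5.3.0 anchors (R 4.3.3) over 2000 variable genes without the 6 genes, Ednrb, Aldh1a2, sex-linked genes and eGFP, and clustered with 20 components at a Louvain resolution of 0.8. Clusters took the name of the marker list with the highest score (marker levels as shares of their maximum among clusters, taken as at least 50 CPM, then averaged), if it reached 0.4 with at least 3 markers at 5 CPM, or of another list with at least 2 more markers among the 10 leading genes, which named the Rgs5-led cluster. Clusters stayed unnamed with over 75% likely doublets, no list passing or a median UMI count under 33.3% of the library's own. That median was read in the library with more cells of the cluster. Likely doublets (Scrublet in scanpy 1.11.5, 867 male and 261 female barcodes) were kept in the main values. Likeness is Pearson's r of log2(CPM + 5), among genes at 50 or more in a profile of each library. Other steps used Python 3.11.15, numpy 2.4.6, scipy 1.17.1 and pandas 2.3.3, and the scripts were tested on simulated data.

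No test was run, since each sex has 1 library and the genes were selected on these data. The 6 genes, the gene lists and the markers were chosen with earlier results of these data known. Genes named are the 6, Ednrb, Aldh1a2, Sox2, cluster markers, the listed relatives and the 3 genes most like each of the 6. The leading genes of clusters, Sox9 and eGFP were named after their values were seen.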

Additional observations from a re-analysis of the deposited data

How the results depend on the processing

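No paired analysis was possible because each sex has 1 library and no result comes from a test, and for the same reason no library could be left out in turn. The counts of the 6 genes and of their 15 pairs were within 1.5 times the main count under the alternatives fixed at the start, with 1 exception. Without thinning, 7 pairs in place of 13 were detected together at least 1.5-fold as often as the product of their shares in both libraries. Within the SC-like clusters only, an alternative chosen after seeing the data, 1 gene (Mme) in place of 6 was at least 2-fold as frequent in Ednrb-positive barcodes, and 1 pair in place of 13 passed. The cause was not tested. Without the Rgs5-led cluster, also chosen after seeing the data, 10 of 12 ratios over mesenchymal-like cells moved by less than their counting interval and those of Tm4sf1 by more. Under 4 alternatives 5 of the 6 genes reached 2-fold, since Cdh26 in the female library fell short: without integration and with the mean of each cell's own CPM for the cluster contrast, and after thinning to 3000 UMIs and with 2 or more Ednrb UMIs for co-detection. Of 600 values of single genes under the alternatives fixed at the start, 517 moved by less than their counting interval, 83 moved by more and 0 changed sign. Within the SC-like clusters only, all 24 values moved by more. The 12 by Ednrb kept their sign and the 12 by Aldh1a2 turned below 0, with male log2 ratios of -0.54 for Mme, -0.16 for Cd59a, -0.054 for Tm4sf1, -0.11 for Scpep1, -0.44 for Klhl31 and -0.29 for Cdh26. The cause was not tested. Shares rest on 1 library per sex, so the spread between animals is unknown.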

Other observations

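Barcodes of the unnamed clusters with few UMIs, 3333 male and 107 female with medians of 1240 and 1349 UMIs, also held the 6 genes. Mme stood at 17.6 CPM (14.5 to 21.2) in the male and 68.3 (41.1 to 107) in the female, from 113 and 19 UMIs. Tm4sf1 stood at 90.8 (83.6 to 98.5) and 223 (171 to 286), and Ednrb at 40.3 (35.5 to 45.5) and 191 (143 to 249). These barcodes entered no comparison of levels between named groups of cells. Their clusters of at least 50 cells in a library were among the profiles used for likeness. The barcodes were also among the cells against which leading genes were ranked. Of them, 67 male and 2 female ones, with a Sox2 UMI and at least 5000 UMIs, were among the Sox2-positive barcodes in which co-detection was read.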
